A study of Drosophila melanogaster with 10 samples.

Results

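The glycolysis enzyme genes described here are Hex-A, Pgi, Pfk, Ald1, Tpi, Gapdh1, Pgk, Eno and Ldh, which encode enzymes of the route from glucose to lactate. Members were taken by name: a probe set counted when the platform annotation gave 1 of these 9 symbols alone. This found 9 probe sets for 8 of the 9 genes, 2 of them for Ald1, and all 8 genes were among the 6721 genes or unnamed probe sets tested. No probe set carried the symbol Ldh alone, so lactate dehydrogenase was not analysed here.

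Glycolysis splits glucose into pyruvate in the cytosol. Hexokinase, phosphoglucose isomerase and phosphofructokinase prepare the sugar, aldolase cleaves it, and triosephosphate isomerase joins its products into 1 stream. Glyceraldehyde-3-phosphate dehydrogenase then yields NADH, phosphoglycerate kinase yields ATP, enolase makes phosphoenolpyruvate, and lactate dehydrogenase regenerates NAD+. In Drosophila the genes of this pathway are known to be raised together in growing larval tissue and in proliferating cells.

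Total RNA came from Schneider line 2 (S2) cells of Drosophila, a cultured embryonic line with features of blood cells. Cells received 10 µg of double-stranded RNA (dsRNA) for 1 h, were divided on day 3 and were collected on day 7. Batch A held 3 control samples given dsRNA against GST and 2 samples given dsRNA against the 5' part of JIL-1, a histone kinase of chromatin. Batch B held 2 control samples given dsRNA against EGFP and 3 samples given dsRNA against the 3' part of JIL-1. EGFP is a gene foreign to the fly, while the other control target is named here only as GST. All samples had been through an RNAi treatment, so no untreated cells enter any comparison. The control dsRNA, the JIL-1 dsRNA and the batch change together and cannot be told apart. The design text calls the 5 samples of each kind biological replicates, and the p-values measure the spread between these samples.

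The knockdown was seen on every array, and the arrays differed by batch. The JIL-1 transcript lay between 5.66 and 5.95 in the batch A controls and at 4.35 in both JIL-1 RNAi samples, and between 7.34 and 7.53 in the batch B controls against 5.66 to 5.84 after JIL-1 RNAi. Of 10 markers of plasmatocytes and S2 cells, 9 had a mean log2 value above 4, among them Hml and srp. The measured fat body genes Fbp1, Lsp2 and Yp1 had no value above 2.29. Some genes listed for other types also had a mean above 4. For neurons and glia these were 2 of 4, elav (4.60 to 8.12) and brp (5.95 to 6.80). For muscle it was 1 of 3 measured, bt (8.07 to 9.31). For follicle cells it was 1 of 2, ct (6.89 to 8.98), and for testis 1 of 3, topi (3.38 to 5.99, thus in part under 4). Of the 9 S2 markers with a mean above 4, 4 fell after JIL-1 RNAi and none rose, where 14.9% of all tested fell. Those that fell were NimC1 (log2 change -2.14), Sr-CI (-1.30), eater (-0.36) and Hml (-0.29). Pxn had 0.42 (adjusted p = 0.0543 in limma) and was not called. Also not called were srp (0.09), He (-0.13), crq (-0.13) and Col4a1 (-0.02). The crystal cell genes PPO1 and PPO2 and the lamellocyte gene PPO3 fell as well, the lamellocyte gene mys had 0.11 and was not called, and the testis gene topi rose (0.43, adjusted p = 0.0361 in limma). The part of such cell markers in the results below was not tested. The 3' minus 5' signal of the actin array control lay between 0.54 and 0.66 in batch A and between 1.54 and 2.01 in batch B. The 18S rRNA control signal, the mean of 3 control probe sets, lay between 12.7 and 13.5 in batch A and between 14.1 and 14.5 in batch B. In such bulk RNA, fewer cells of a kind and less RNA per cell cannot be told apart.

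Setting JIL-1 RNAi beside control RNAi asks whether transcripts of the pathway moved when the kinase was depleted. Ald1 rose by 1.33-fold, and Tpi and Gapdh1 fell by 1.11-fold and 1.17-fold. Hex-A, Pgi, Pfk, Pgk and Eno did not pass the threshold. A gene was called when limma's p-value, adjusted by Benjamini-Hochberg over all 6721 tested, lay under 0.05 in a model of the 5 control and 5 JIL-1 RNAi samples that included batch. All changes are log2 differences, JIL-1 RNAi minus control, with the standard error (SE) of that fit. So 1 of 8 members rose and 2 fell, where over all tested 20.8% rose, 14.9% fell and 35.7% changed in either direction. The share of members called lies near that of all tested. The median change of the 8 members was -0.11 beside 0.05 for all tested, and the median size of change was 0.14 beside 0.16.

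**Figure D1:**
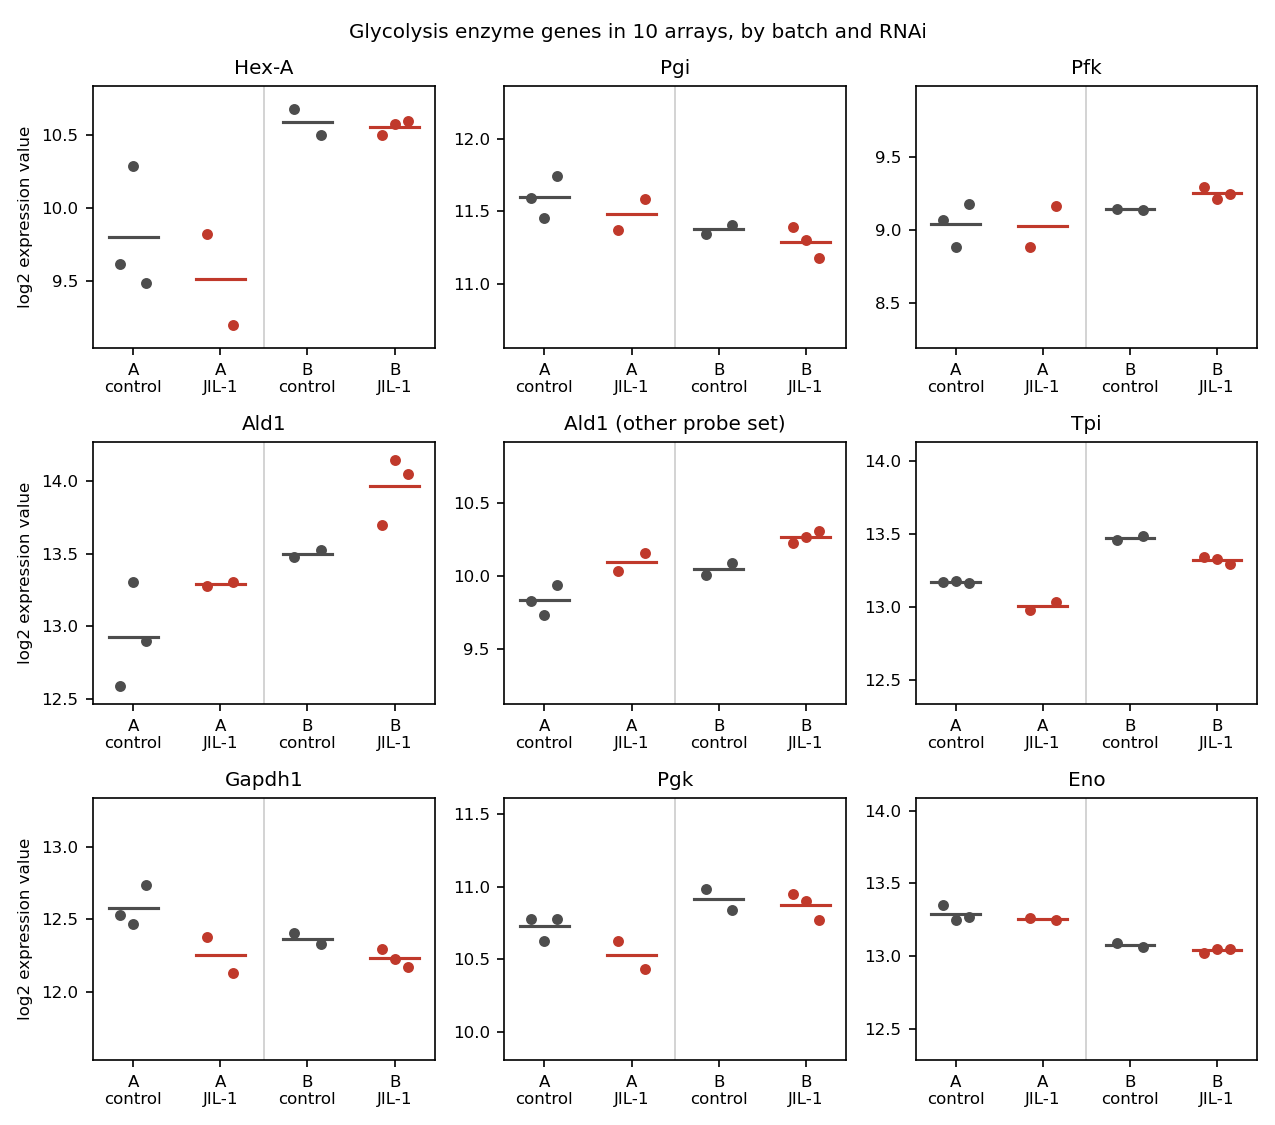
Log2 expression value (vertical axis) of the 9 probe sets of 8 glycolysis enzyme genes in each of the 10 arrays, by batch and RNAi (horizontal axis). Points are arrays, lines are the means of 2 or 3 arrays, and every panel spans the same number of log2 units. Tpi and Gapdh1 lie lower after JIL-1 RNAi in both batches with no overlap, and Hex-A spreads widely in batch A.

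Hexokinase opens the pathway by phosphorylating glucose, and Hex-A, on the X chromosome, is the hexokinase gene of the set. In batch A its log2 values were 9.62, 10.29 and 9.49 in the controls and 9.82 and 9.20 after JIL-1 RNAi. In batch B they were 10.68 and 10.50 in the controls and 10.50, 10.57 and 10.59 after JIL-1 RNAi. The groups overlapped in both batches, and control replicate 2 stood highest in batch A. The change was -0.16 (SE 0.16, adjusted p = 0.475 in limma), with a 95% interval from -0.52 to 0.21. The spread of Hex-A within a batch and group was the widest of the members, at 0.44 (SD, n = 2) in the JIL-1 RNAi samples of batch A and 0.43 (SD, n = 3) in its controls.

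In batch A the 18S rRNA control signal of the same arrays was high where Hex-A was high. That signal was 12.9, 13.5 and 12.7 in the controls and 13.2 and 12.7 after JIL-1 RNAi. Control replicate 2 was highest in both measures and JIL-1 RNAi replicate 1 second in both. In batch B the Hex-A values lay between 10.50 and 10.68, and the order of the arrays differed between the measures. With the 18S signal as a further term in the fit, a setting added after the data were seen, the change of Hex-A was -0.20 (SE 0.07, adjusted p = 0.0398 in limma). The hexokinase paralogs Hex-C, Hex-t1 and Hex-t2, the last pair of the testis, had a mean of 4 or less and were not tested.

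**Figure D2:**
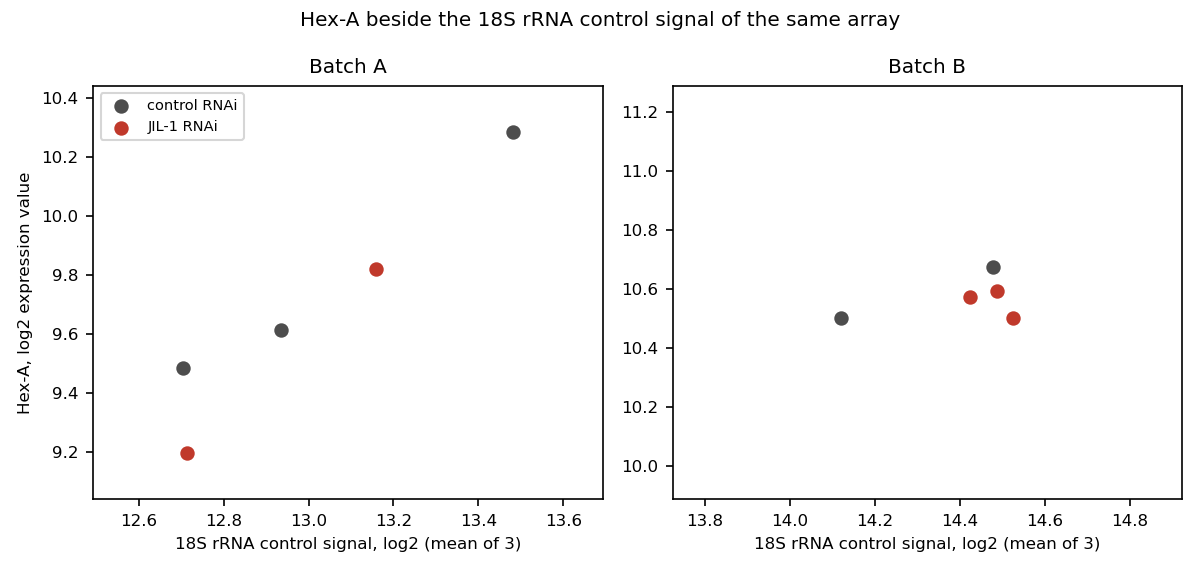
Log2 value of Hex-A (vertical axis) against the mean log2 signal of 3 18S rRNA control probe sets (horizontal axis), 1 point per array, with batches in separate panels of equal span. In batch A control replicate 2 stands at 13.5 and 10.29, the highest in both measures, and in batch B the arrays lie closer together.

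Pgi, on chromosome arm 2R, interconverts glucose-6-phosphate and fructose-6-phosphate. Its log2 values in batch A were 11.59, 11.46 and 11.75 in the controls and 11.38 and 11.59 after JIL-1 RNAi. In batch B they were 11.35 and 11.41 in the controls and 11.39, 11.30 and 11.18 after JIL-1 RNAi. The groups overlapped in both batches, and the change was -0.10 (SE 0.07, adjusted p = 0.3 in limma, 95% interval -0.26 to 0.06).

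Pfk, also on 2R, catalyses the committed step of the pathway. The batch A controls lay at 9.07, 8.88 and 9.18, and the JIL-1 RNAi samples at 8.88 and 9.17. The batch B controls both lay at 9.14, below the JIL-1 RNAi samples at 9.30, 9.21 and 9.25. The groups thus overlapped in batch A only, and the change over both was 0.05 (SE 0.08, adjusted p = 0.664 in limma, 95% interval -0.12 to 0.21). In batch A, control replicate 2 and JIL-1 RNAi replicate 1, the arrays highest in Hex-A and in 18S signal, were the lowest of the 5 in both Pgi and Pfk.

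Aldolase, encoded by Ald1 on 3R, splits fructose-1,6-bisphosphate, and it was the member with the largest change and the single rise. Its brighter probe set lay at 12.59, 13.30 and 12.90 in the batch A controls and at 13.28 and 13.31 after JIL-1 RNAi. In batch B it lay at 13.48 and 13.52 in the controls and at 13.70, 14.14 and 14.05 after JIL-1 RNAi. Control replicate 2 overlapped the JIL-1 RNAi samples of batch A, and in batch B all 3 JIL-1 RNAi samples were above both controls. The change was 0.41 (SE 0.13, adjusted p = 0.033 in limma). Within the batches it was 0.36 (A) and 0.46 (B). The call was lost in 8 of the 10 fits that left out 1 sample, in which the change ran from 0.34 to 0.50 and the adjusted p from 0.00497 to 0.0804.

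The other probe set of Ald1 changed in the same direction with less spread. Its values were 9.83, 9.73 and 9.94 in the batch A controls and 10.04 and 10.16 after JIL-1 RNAi. In batch B they were 10.00 and 10.09 in the controls and 10.23, 10.27 and 10.31 after JIL-1 RNAi. JIL-1 RNAi samples were above the controls in both batches with no overlap. In a limma fit of all 7096 probe sets with a mean above 4, of which 34.8% were called, its change was 0.24 (SE 0.06, adjusted p = 0.00813). This call held whichever sample was left out, with adjusted p from 0.00732 to 0.0312. Both probe sets of Ald1, like those of Pgi, Tpi and Eno, carry the platform suffix _s_at, and those of Hex-A and Pfk carry _a_at. Both suffixes stand for probes that match more than 1 transcript, and the probe sets of Gapdh1 and Pgk have neither. The aldolase paralog Ald2 shares its probe set with another gene name and was not analysed.

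Tpi, on 3R, interconverts the triose phosphates that aldolase releases. In batch A the controls lay at 13.17, 13.18 and 13.16 and the JIL-1 RNAi samples at 12.98 and 13.04. In batch B the controls lay at 13.46 and 13.49 and the JIL-1 RNAi samples at 13.34, 13.33 and 13.29. Every JIL-1 RNAi sample was below every control of its batch, by a small amount. The change was -0.16 (SE 0.04, adjusted p = 0.0152 in limma). Within the batches it was -0.16 (A) and -0.15 (B). The replicates of Tpi differed little, with an SD of 0.0080 (n = 3) in the controls of batch A and 0.021 (n = 2) in those of batch B. Tpi kept its call whichever sample was left out, with adjusted p from 0.0214 to 0.0441. With the actin 3' minus 5' signal as a further term the change was -0.14 (adjusted p = 0.0701 in limma).

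Gapdh1, on 2R, oxidises glyceraldehyde-3-phosphate and yields NADH. In batch A the controls lay at 12.53, 12.47 and 12.73 and the JIL-1 RNAi samples at 12.38 and 12.13. In batch B the controls lay at 12.40 and 12.33 and the JIL-1 RNAi samples at 12.30, 12.23 and 12.18. The JIL-1 RNAi samples were below the controls in both batches. The change was -0.23 (SE 0.07, adjusted p = 0.0397 in limma). Within the batches it was -0.32 (A) and -0.13 (B). The call was lost in 7 of the 10 fits that left out 1 sample, in which the change ran from -0.26 to -0.16 and the adjusted p from 0.0405 to 0.127. By the brightest probe set of each gene, Tpi and Gapdh1 were the 2 of 8 members whose groups overlapped in neither batch with the same direction in both. Of all tested, 31.6% also showed this, and so did the other probe set of Ald1.

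The array carries control probe sets for GAPDH that are separate from the Gapdh1 probe set, for the 3' end, the middle and the 5' end of a transcript. The labels and files do not say which GAPDH gene they match. The middle control lay at 12.64, 12.50 and 12.52 in the batch A controls and at 12.04 and 11.93 after JIL-1 RNAi. In batch B it lay at 12.11 and 11.95 in the controls and at 11.76, 11.78 and 11.78 after JIL-1 RNAi. All JIL-1 RNAi samples were below the controls of their batch. In a limma fit that kept the array controls, 6785 rows of which 35.4% were called, the middle control changed by -0.41 (SE 0.07, adjusted p = 0.00176). The 3' control changed by -0.31 (SE 0.07, adjusted p = 0.008) and the 5' control by -0.38 (SE 0.12, adjusted p = 0.0325). The groups of the 5' control overlapped in batch B, where control replicate 5 (11.82) was below all JIL-1 RNAi samples. The calls of the 3' and middle controls held whichever sample was left out, with highest adjusted p of 0.0297 and 0.00821, and that of the 5' control was lost in 7 of 10 such fits. None of the actin, eIF-4a and 18S controls was called in this fit over both batches. Within batch B the 5' control of eIF-4a was higher (0.48, adjusted p = 0.00329 in limma), and within batch A it had -0.04. The GAPDH controls were read on the same 10 arrays as Gapdh1 and are not further samples.

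**Figure D3:**
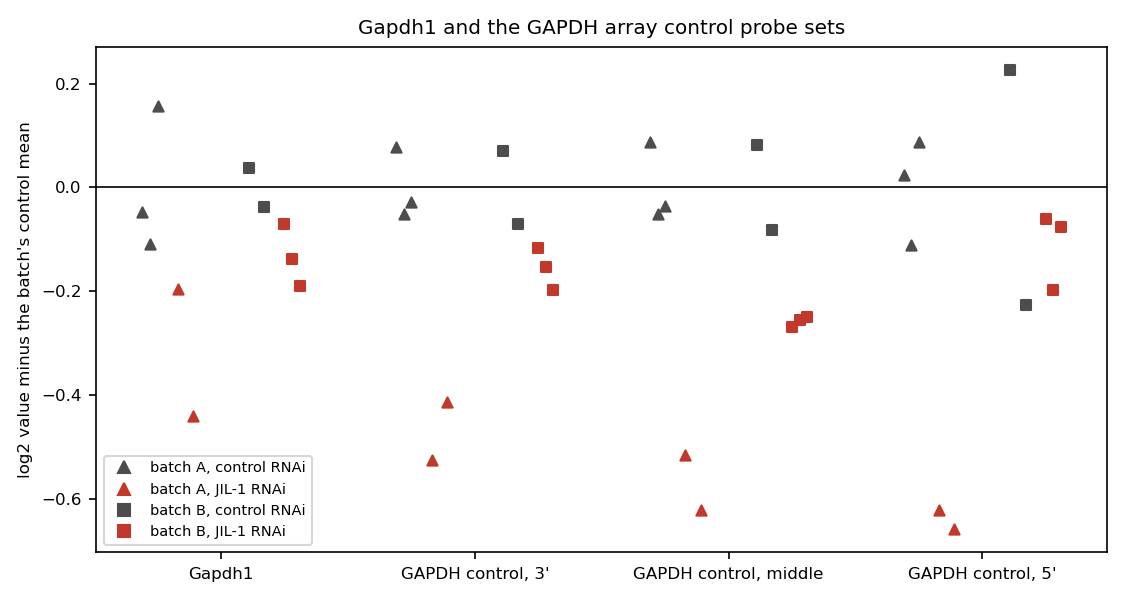
Log2 value minus the mean of the control samples of the same batch (vertical axis) for Gapdh1 and the 3 GAPDH array control probe sets (horizontal axis), 1 point per array. Points after JIL-1 RNAi lie below 0 in every column, and their mean lies farther from 0 in batch A than in batch B. For the 5' control in batch B, control replicate 5 lies below all JIL-1 RNAi samples.

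Pgk, on 2L, makes ATP from 1,3-bisphosphoglycerate. In batch A the controls lay at 10.78, 10.63 and 10.78 and the JIL-1 RNAi samples at 10.63 and 10.43, lower with no overlap, though control replicate 2 and JIL-1 RNAi replicate 1 were nearly equal. In batch B the controls lay at 10.99 and 10.84 and the JIL-1 RNAi samples at 10.95, 10.90 and 10.77, with overlap. The change was -0.12 (SE 0.07, adjusted p = 0.196 in limma, 95% interval -0.27 to 0.03).

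Eno, on 2L, makes phosphoenolpyruvate. In batch A the controls lay at 13.35, 13.25 and 13.27 and the JIL-1 RNAi samples at 13.26 and 13.25. In batch B the controls lay at 13.09 and 13.07 and the JIL-1 RNAi samples at 13.02, 13.05 and 13.05. The groups overlapped in batch A, and in batch B the JIL-1 RNAi samples were lower by a small margin. The change was -0.04 (SE 0.04, adjusted p = 0.537 in limma), with a 95% interval from -0.13 to 0.06.

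**Figure D4:**
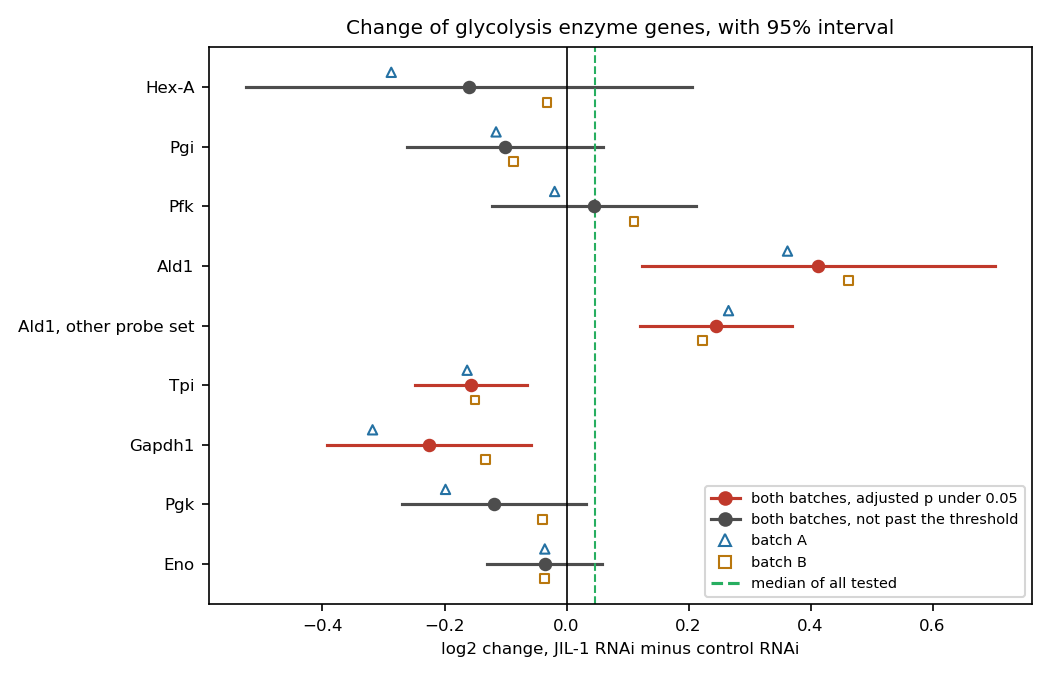
Log2 change after JIL-1 RNAi (horizontal axis) for each probe set of the glycolysis enzyme genes (vertical axis). Filled points with lines are the change over both batches with its 95% interval, triangles are batch A and squares batch B, and the dashed line is the median of all tested, 0.05. The 2 probe sets of Ald1 lie to the right of 0, at 0.41 and 0.24, and Tpi and Gapdh1 to the left.

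Since the dsRNA against JIL-1 differed between the batches, the change was also fitted within each. In batch A 1 of 8 members passed, the fall of Gapdh1 (-0.32, SE 0.10, adjusted p = 0.0424 in limma), where 28.2% of all tested passed. This call was lost in 8 of the 10 fits that left out 1 sample. The other probe set of Ald1 also passed within batch A in the fit of every probe set (0.27, SE 0.08, adjusted p = 0.0366) and did not within batch B (0.22, adjusted p = 0.0892). In batch B none of the 8 passed, where 17.6% of all tested passed, while Ald1 and Tpi had an unadjusted p under 0.05. The difference between the changes of the batches passed for none of the 8 members in limma, also at an unadjusted p under 0.05, and for 1.38% of all tested. The largest such difference was that of Hex-A, 0.26 (SE 0.33). All members but Pfk had 1 sign of change in both batches, and Pfk had -0.02 in batch A and 0.11 in batch B.

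The controls of the batches also differed in several members. Batch B controls against batch A controls were higher in Hex-A by 0.79 (SE 0.24, adjusted p = 0.0155 in limma), in Ald1 by 0.57 (SE 0.19, adjusted p = 0.0262) and in Tpi by 0.30 (SE 0.06, adjusted p = 0.00154), and lower in Eno (-0.21, SE 0.06, adjusted p = 0.0121). So 3 of 8 members were higher and 1 lower, where 37.7% of all tested were higher, 24.7% lower and 62.4% either. This split turned on the scaling of the arrays. With arrays set to the median of the tested rows 1 member was higher (Hex-A) and 3 were lower (Pgi, Gapdh1 and Eno), beside 27.6% higher and 36.7% lower of all tested. With quantile normalization 4 were higher (Hex-A, Ald1, Tpi and Pgk) and none lower, beside 30.6% higher and 31.2% lower. The median control difference over all tested was 0.10 as deposited, -0.05 under the median scaling and -0.0024 under quantile normalization. Pgi (-0.22), Gapdh1 (-0.21), Pgk (0.19) and Pfk (0.10) did not pass. The Hex-A call was lost without control replicate 4 (0.70, adjusted p = 0.0942), the Eno call without control replicate 5 (adjusted p = 0.0739), and the Ald1 call in 4 of 10 such fits. The 18S signal and the 3' minus 5' signals of the array controls moved with this difference. With the 18S signal as a further term the Hex-A difference was -0.52 (adjusted p = 0.102 in limma) and that of Ald1 0.11 (adjusted p = 0.864). The 18S ranges of the batches do not overlap, so these 2 values rest on extending a slope beyond the arrays of either batch. The GAPDH controls were lower in batch B as well, by 0.30 at the 3' end and 1.19 at the 5' end. What the batch, the control dsRNA and the RNA each gave to these differences cannot be told apart.

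For like profiles over the 10 arrays, each gene was centred on its own mean, and the members were left out as matches. Likeness between members was thus not examined. The other named genes tested that lay nearest to each called member were looked for. For Ald1 these were aPKC, an atypical protein kinase C, with a root mean square difference of 0.09 on the log2 scale, and CenG1A, an Arf GTPase-activating protein, with 0.11. For Tpi they were Atox1, a copper chaperone, with 0.04, and Mcm6, a subunit of the replicative helicase, with 0.06. For Gapdh1 they were Vamp7, a SNARE protein of membrane fusion, with 0.07, and lili with 0.07. No gene of the list of other glycolysis genes was among them, where only 3 of its 14 genes were tested.

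Around the pathway, lists of other sugar metabolism genes were read in the same fit. Of 52 genes in 6 lists, 31 were tested, 11 had a mean of 4 or less and 10 had no probe set of their own name. Of the 31, 5 rose, 7 fell and 19 did not pass, with a median change of -0.01 beside 0.05 over all tested. These shares stand beside 20.8% rises and 14.9% falls over all tested. The lists are a description, and no test was made of a list as a whole.

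Among other glycolysis genes, 3 of 14 were tested, and pyruvate kinase PyK and Gapdh2 had no probe set of their own name. Pfrx, which makes and removes the activator fructose-2,6-bisphosphate, rose by 0.25 (SE 0.08, adjusted p = 0.0332 in limma), 0.37 within batch A and 0.13 within B, and its call was lost in 7 of 10 fits that left out 1 sample. Pglym78, a phosphoglycerate mutase, had -0.07 (SE 0.06) and CG7069, of the pyruvate kinase family, -0.40 (SE 0.27), neither of them called.

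Of 3 tested gluconeogenesis genes 1 fell and none rose. PCB, the pyruvate carboxylase that feeds oxaloacetate to gluconeogenesis and to the citric acid cycle, had log2 values of 8.63, 8.79 and 8.64 in the batch A controls and 8.34 and 8.07 after JIL-1 RNAi. In batch B it had 8.92 and 8.85 in the controls and 8.15, 8.32 and 8.32 after JIL-1 RNAi. Both batches were without overlap, and PCB fell by 0.55 on the log2 scale (SE 0.07, adjusted p = 0.00031 in limma), 1.46-fold. The call held at an adjusted p under 0.05 in all 24 other fits made, while the fold lies under the 1.5-fold minimum set as an alternative. Another, dim probe set of PCB had means under 4 in every batch and group and was not tested. Pepck1 had 0.32 (SE 0.16) and fbp -0.01 (SE 0.14), and neither passed.

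Glycogen and trehalose genes held 1 rise and 3 falls among 8 tested. Tret1-1, a trehalose transporter, rose by 1.36-fold (0.44, SE 0.10, adjusted p = 0.00866 in limma). Pgm1, the phosphoglucomutase between glycogen and glycolysis, fell by 1.27-fold (-0.35, SE 0.06, adjusted p = 0.0012), Treh, the trehalase that splits trehalose into glucose, by 1.29-fold (-0.36, SE 0.07, adjusted p = 0.00262), and UGP, which makes UDP-glucose, by 1.37-fold (-0.45, SE 0.12, adjusted p = 0.0161). The groups of these 4 called genes overlapped in neither batch, with the same direction in both, which 31.6% of all tested also showed. GlyP, GlyS, AGBE and Gyg, for glycogen breakdown and synthesis, ranged from -0.11 to 0.11 and were not called. With the actin 3' minus 5' signal as a further term UGP was no longer called (-0.34, adjusted p = 0.11).

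Among 4 tested genes for the fates of pyruvate and glycerol phosphate, 1 rose and 1 fell. Gpdh1, the cytosolic glycerol-3-phosphate dehydrogenase, draws on the triose phosphates and, like lactate dehydrogenase, regenerates NAD+. Its brightest probe set lay at 10.50, 10.40 and 10.65 in the batch A controls and at 10.07 and 9.87 after JIL-1 RNAi. In batch B it lay at 9.44 and 9.43 in the controls and at 8.95, 8.89 and 9.22 after JIL-1 RNAi. Gpdh1 was 1.40-fold lower (-0.48, SE 0.08, adjusted p = 0.0014 in limma). All 4 of its probe sets fell in the fit of every probe set, by -0.48 (adjusted p = 0.00155), -0.99 (adjusted p = 6.5e-06), -0.40 (adjusted p = 0.0113) and -0.53 (adjusted p = 0.0013). The rise was that of muc, the E2 subunit of pyruvate dehydrogenase, at 0.21 (SE 0.05, adjusted p = 0.00657). Pdk, a kinase that holds pyruvate dehydrogenase back, had 0.11 (SE 0.15) and Mpc1, a mitochondrial pyruvate carrier, 0.05 (SE 0.05).

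In the pentose phosphate pathway, which branches off at glucose-6-phosphate, 1 of 4 tested genes fell and none rose. Pgls, its lactonase, changed by -0.27 (SE 0.07, adjusted p = 0.0167 in limma), and lost its call when JIL-1 RNAi replicate 2, or control replicate 4 or 5, was left out and with the actin signal as a further term (-0.19, adjusted p = 0.122). Rpi, Rpe and Taldo ranged from -0.14 to 0.03 and were not called.

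Of 9 tested regulators of the pathway 2 rose and 1 fell, beside 35.7% of all tested called in either direction. Mondo, a transcription factor that responds to sugar phosphates, lay at 10.19, 10.19 and 10.34 in the batch A controls and at 10.71 and 10.80 after JIL-1 RNAi. In batch B it lay at 9.86 and 9.85 in the controls and at 10.20, 10.27 and 10.36 after JIL-1 RNAi. Both batches were without overlap, and Mondo rose by 1.38-fold (0.47, SE 0.06, adjusted p = 0.000181 in limma). Its dimerisation partner bigmax rose by 1.18-fold (0.23, SE 0.06, adjusted p = 0.00954).

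The gene that fell was sug, which encodes a zinc finger factor known in larvae as a target of Mondo. It lay at 8.55, 9.31 and 9.50 in the batch A controls and at 8.18 and 8.24 after JIL-1 RNAi. In batch B it lay at 7.78 and 8.01 in the controls and at 7.17, 7.24 and 7.05 after JIL-1 RNAi. The samples after JIL-1 RNAi were below the controls in both batches, and sug was 1.77-fold lower (-0.82, SE 0.16, adjusted p = 0.00308 in limma), the widest change of the wider lists. Within the batches its change was -0.91 (A) and -0.74 (B). The hypoxia factors sima (0.12, SE 0.18) and tgo (0.11, SE 0.07) and the estrogen-related receptor ERR (0.25, SE 0.20), known as an activator of glycolysis genes in Drosophila embryos, were not called, and crc and foxo were not called either. Hph, the prolyl hydroxylase that acts on hypoxia factors, was not called over both batches (-0.34, SE 0.18, adjusted p = 0.161 in limma). Within batch A it was lower (-0.72, SE 0.20, adjusted p = 0.0238) and within batch B it had 0.04 (SE 0.20), a difference between batches that did not pass (0.75, SE 0.28, adjusted p = 0.252).

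**Figure D5:**
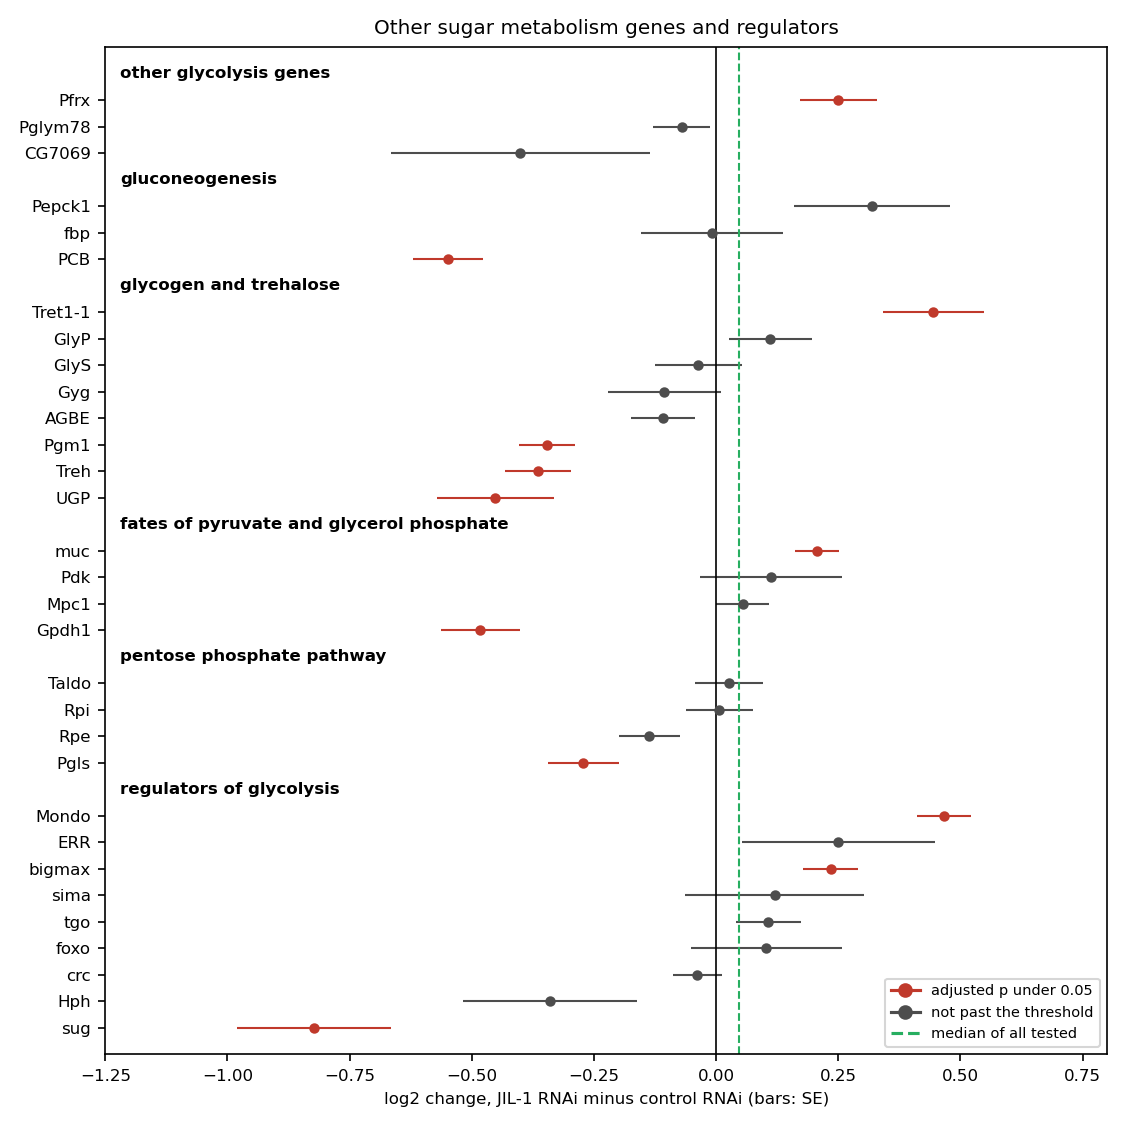
Log2 change after JIL-1 RNAi with its SE (horizontal axis) for the 31 tested genes of 6 lists of sugar metabolism (vertical axis). Coloured points passed the threshold, and the dashed line is the median of all tested, 0.05. PCB, Gpdh1 and sug lie farthest left of the called genes, at -0.55, -0.48 and -0.82, and Mondo farthest right at 0.47.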

How the data were processed

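Each of the 10 arrays gave a single log2 value for every probe set in the deposited table. GCRMA was the authors' tool for these log2 values, per the submitters' processing notes. No label or file states its version or whether both batches entered 1 normalization. The number of arrays limits the precision.

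Names came from the platform annotation, with current symbols and chromosome arms by gene ID from the Drosophila assembly Release 6. Without the 183 array controls among 18952 probe sets, and with each gene read from its brightest probe set by mean, 17105 rows were left, and the 6721 with a mean above 4 were tested. The functions lmFit and eBayes of limma 3.58.1 (R 4.3.3) gave two-sided tests, modelling group and batch, or with 4 means for the within-batch changes, their difference and the control difference. Benjamini-Hochberg adjustment ran over all rows tested, with a threshold of 0.05. The procedure was tested on simulated data.

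The members and gene lists were chosen with earlier results of these data known. Named genes were all members, in each wider list up to 4 called genes with the smallest p, and for each called member the 2 nearest profiles. Other uncalled genes of the lists, and the order of arrays in Hex-A, Pgi, Pfk and 18S, were described after their values were seen. Alternatives were no batch term, other filters, scalings and variance models, array weights, other probe set choices, the replicate number or batch as a block, each sample left out, and other thresholds. Chosen after seeing the data were fits with an 18S or actin control signal as a term, with array controls as rows, and with arrays set to the median of the tested rows. No array was a copy of another: within a batch and group, differences between a pair of samples had an SD of 0.155 to 0.264.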

Additional observations from a re-analysis of the deposited data

How the results depend on the processing

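The number of called members, 3, became 0 without a term for batch, 1 without the filter on dim probe sets, 1 of 2 when cross-hybridising probe sets were left out, 1 with the actin 3' minus 5' signal as a term, 0 with a 1.5-fold minimum, and 1 to 3 when 1 sample was left out. The count stood at 1 without control replicates 1, 3 or 4 or JIL-1 RNAi replicates 1, 2, 4 or 5. With the replicate number as a block 0 of 8 members and 7 of the 31 wider genes were called. In that fit 9.02% of all tested rose and 8.88% fell. The numbers do not pair the samples: deviations from the batch and group means correlated between -0.30 and 0.24 within a number, and 1 of 10 samples correlated best with its own. The number of wider genes called, 12, became 1 without a term for batch, 1 with a 1.5-fold minimum and 14 with array weights. Array weights gave 21.8% rises and 18.1% falls over all tested. Without the probe sets with such a suffix 6 of 19 wider genes were called. The number of wider genes called was 10 to 13 when 1 sample was left out.

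Within batch A the number of members called, 1, became 2 with a variance trend, 2 with arrays set to the median of the tested rows, 2 at an adjusted p under 0.1, 0 with a 1.5-fold minimum, 0 with the 18S or the actin signal as a term, and 0 to 2 when 1 sample was left out. Within batch B the count of 0 became 1 without the filter, 1 with a variance trend and 2 with array weights. It stayed 0 when any 1 sample was left out. As first fitted, 28.2% of all tested passed within batch A and 17.6% within batch B. The shares of all tested in these within-batch alternatives are not given here. The number of members that differed between the batches' controls, 4, became 2 without the filter and 0 with the actin signal. Without the filter 12.4% of all rows were higher and 8.47% lower. With the actin signal 1 of 6721 was higher and 0 lower, beside 37.7% and 24.7% in the main fit. With a 1.5-fold minimum the number of members became 1. Without the probe sets with a suffix for more than 1 transcript it became 0 of 2. There 37.9% of all tested were higher and 23.4% lower. With the 18S signal the number of members became 1 (Pfk, 0.56, adjusted p = 0.043 in limma, which was not among the 4). That fit had 17.3% of all tested higher and 8.08% lower. The number of members rose to 5 with a variance trend (3 higher, 2 lower), beside 38.1% higher and 25.2% lower of all tested. With array weights, and at an adjusted p under 0.1, it became 6 (3 higher, 3 lower). Array weights gave 39.1% higher and 26.1% lower over all tested. The number of members ran from 2 to 5 when 1 sample was left out. In those fits 29.4% to 38.2% of all tested were higher and 18.7% to 25.5% lower. Of these control differences, that of Hex-A turned to -0.52 with the 18S signal, whose ranges in the batches do not overlap. Those of Ald1 and Eno turned to -0.32 (SE 1.37) and 0.042 (SE 0.45) with the actin signal, which differs so much by batch that the SE grew. Beyond that the cause was not tested. No other called change of a named gene turned its sign. Over all tested, 2397 calls became 501 without a term for batch, 1452 of 17105 without the filter and 1203 with the replicate block. The count of 0 for the difference between the batches' changes stood in every alternative in which it was fitted.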
